A study of Mus musculus with 30 samples.

Results

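The markers of retinal stress and gliosis *Gfap*, *Vim*, *Lcn2*, *Serpina3n*, *Cp*, *Edn2*, *Fgf2*, *Lif*, *Osmr* and *Stat3*, were followed across 3 *Mertk* knockout lines and wildtype mice. They were taken by symbol, as 10 of the 55573 genes in each of the deposited tables, with earlier results of these data known. RNA was sequenced from retinal pigment epithelium (RPE) at postnatal day 25 and from bone marrow-derived macrophages (BMDMs) grown from adult marrow in L929-conditioned medium. All mice were labelled C57BL/6J. B6 WT mice carried both *Mertk* alleles and gave 6 RPE and 3 BMDM libraries. *Mertk*-/-V1 mice had exon 17 of *Mertk* replaced by a neomycin cassette that was kept in the locus. That line was made in 129P2 embryonic stem cells and still holds a 129P2 segment of chromosome 2 around *Mertk*, so loss of the gene and the flanking 129P2 alleles cannot be told apart in it. It gave 6 RPE and 3 BMDM libraries. *Mertk*-/-V2 mice lacked exon 18 and *Mertk*-/-V3 mice lacked exons 3 and 4 after CRISPR editing. Both were made directly in the B6 background, in part C57BL/6NJ, and each gave 3 RPE and 3 BMDM libraries. Every comparison with wildtype used the same B6 WT libraries, so the 3 lines were not independent of each other in this respect.

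When photoreceptors or the RPE are injured, Müller glia and astrocytes of the retina raise intermediate filaments, secreted acute-phase proteins and growth factors, a response known as gliosis. Cytokines of the interleukin-6 family such as LIF signal through the shared receptor subunit gp130 and the transcription factor STAT3, which turns on *Gfap* and its own feedback inhibitor *Socs3*. Photoreceptors under stress are known to release endothelin-2, and FGF2 is a survival factor for them. BMDMs are cultures of macrophages and hold no glia.

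In RPE at P25, each of the 10 markers had a higher mean log2 level in *Mertk*-/-V1 than in B6 WT, with a median log2 fold change of 0.84 where the median of all 18832 genes tested was 0.02. Of the 10, 8 were higher in *Mertk*-/-V2 and 9 of 10 in *Mertk*-/-V3, with medians of 0.56 and 0.63 against 0.02 and -0.01 for all genes. Among the 3 lines, *Lcn2*, *Edn2*, *Fgf2*, *Gfap* and *Serpina3n* had the highest fold changes, but no marker passed the test across all genes in any line. At an adjusted p under 0.05 in limma, 0 of 10 markers were called in *Mertk*-/-V1, where 0.388% of all genes were called in either direction, 0 in *Mertk*-/-V2, where 0.069% were called, and 0 in *Mertk*-/-V3, where 0.069% were called as well. At an unadjusted p under 0.05, 7 of 10 markers were higher in *Mertk*-/-V1 against 3.31% of all genes, 2 in *Mertk*-/-V2 against 2.86% and 3 in *Mertk*-/-V3 against 4.75%, and none was lower in any line. The test of edgeR also called 0 of 10 in every line. DESeq2 called 4 markers in *Mertk*-/-V1, where it called 0.829% of all genes, and 0 in the other lines.

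**Figure D1:**
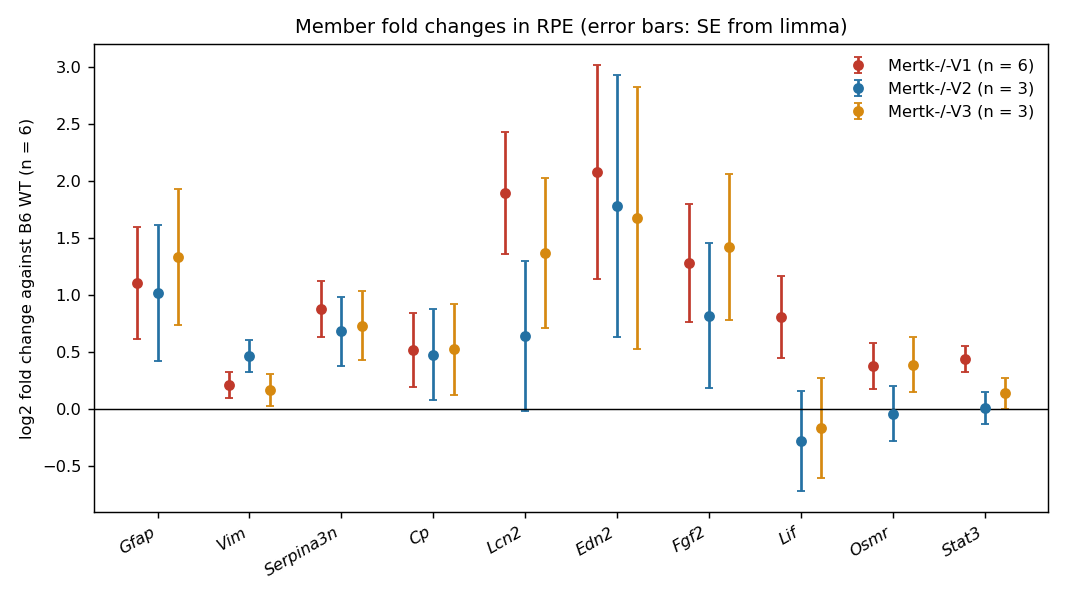
Log2 fold change of each marker against B6 WT in RPE for the 3 knockout lines (vertical axis, log2; points are limma estimates and error bars their standard errors; n = 6 libraries for B6 WT and *Mertk*-/-V1 and 3 for each of the others). Most points lie above the zero line, with *Edn2*, *Lcn2*, *Fgf2* and *Gfap* highest and *Lif*, *Osmr* and *Stat3* near or under it in *Mertk*-/-V2.

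RPE libraries held 14137666 to 34124049 reads and BMDM libraries 16629659 to 25653814. In normalized counts *Mertk* itself had a mean of 3202 ± 454 (SD, n = 6) in wildtype RPE, 1177 ± 295 (SD, n = 6) in *Mertk*-/-V1 and 852 ± 357 (SD, n = 3) in *Mertk*-/-V3. It was 4229 ± 945 (SD, n = 3) in *Mertk*-/-V2, where the count covers every exon and so does not check the loss of exon 18. All 10 RPE genes chosen to check the tissue, among them *Rpe65* and *Best1*, were expressed in the RPE libraries, but so were all 10 rod, 10 Müller glia, 5 astrocyte and 10 microglia or macrophage genes. The summed RPE genes were lowest in *Mertk*-/-V1 replicate 6, *Mertk*-/-V1 replicate 5 and *Mertk*-/-V3 replicate 1, with 201054, 267900 and 286461 normalized counts against 446162 to 858916 in the other 15 libraries. Those 3 libraries also had the highest summed rod genes, with 509280, 843129 and 401348 against 34488 to 337269 elsewhere. In such mixed preparations, fewer cells of a type and less RNA per cell cannot be told apart. B6 WT and *Mertk*-/-V1 RPE replicates fell into 1 set numbered 1 to 3 and another numbered 4 to 6. The sets differed at an adjusted p under 0.05 in 40.8% of genes and in 3 of the 10 markers, *Cp*, *Fgf2* and *Stat3*. *Mertk*-/-V2 and *Mertk*-/-V3 RPE libraries were numbered 1 to 3 only, but were compared with both sets of B6 WT and of *Mertk*-/-V1. All p-values measure the spread between the libraries labelled as biological replicates. In the main limma fit this spread was pooled over all 4 genotypes of a tissue, with no term for the replicate set. The SE and p-value of any line therefore also carry the scatter of the other lines. For *Fgf2* in RPE the SD of the counts was 1032 for *Mertk*-/-V1 and 596 for *Mertk*-/-V3. It was 46.5 for wildtype and 58.2 for *Mertk*-/-V2.

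*Gfap* (ENSMUSG00000020932, chr11:102887336-102900912, minus strand of GRCm38), *Lcn2* (ENSMUSG00000026822, chr2:32384633-32388252, minus strand) and *Cp* (ENSMUSG00000003617, chr3:19957054-20009145, plus strand) were the markers whose promoter window held a match to a motif of STAT or C/EBP factors, the factors on which the response is known to converge. The windows come from RefSeq on GRCm38.p6 and run from 250 bases before to 50 after an annotated start, and all 10 markers had a window. They are shown 5′ to 3′ on the strand of the gene for that reason, with the matching letters in capitals.

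Gfap, chr11:102897151-102897450, minus strand: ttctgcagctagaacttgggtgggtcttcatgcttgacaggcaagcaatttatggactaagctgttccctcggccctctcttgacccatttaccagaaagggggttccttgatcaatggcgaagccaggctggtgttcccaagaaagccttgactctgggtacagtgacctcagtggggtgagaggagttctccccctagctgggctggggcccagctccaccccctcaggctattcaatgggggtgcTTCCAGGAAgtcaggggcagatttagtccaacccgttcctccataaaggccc

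Lcn2, chr2:32387690-32387989, minus strand: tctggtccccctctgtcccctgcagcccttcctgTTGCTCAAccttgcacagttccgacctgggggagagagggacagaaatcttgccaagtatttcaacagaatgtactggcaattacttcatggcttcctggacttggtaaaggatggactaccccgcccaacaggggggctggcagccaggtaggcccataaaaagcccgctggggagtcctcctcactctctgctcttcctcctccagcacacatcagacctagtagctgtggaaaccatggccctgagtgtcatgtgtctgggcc

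Cp, chr3:19956999-19957298, plus strand: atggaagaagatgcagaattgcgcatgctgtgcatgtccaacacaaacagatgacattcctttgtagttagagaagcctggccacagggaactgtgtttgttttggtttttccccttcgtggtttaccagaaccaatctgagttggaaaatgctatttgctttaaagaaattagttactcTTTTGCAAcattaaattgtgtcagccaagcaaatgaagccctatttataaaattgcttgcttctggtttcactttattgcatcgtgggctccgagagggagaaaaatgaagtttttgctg

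The STAT motif searched was TTCNNNGAA, which reads the same on both strands, and it was found in 1 of 10 markers, at position -2 from the start in *Gfap*, and in 8.3% of all 32851 promoter windows. The C/EBP motif was TTGCNNAA on either strand, with no overlap to the first, and it was found in 2 of 10 markers, at position -216 in *Lcn2* and -70 in *Cp*, and in 10.8% of all windows. A match describes the letters and does not show a bound site.

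*Gfap* and *Vim* encode intermediate filament proteins. *Gfap* encodes glial fibrillary acidic protein, kept at a low level in resting Müller glia. It ranged from 515 through a median of 989 to 2424 normalized counts in B6 WT RPE and from 526 through 2858 to 3504 in *Mertk*-/-V1. The *Mertk*-/-V2 libraries held 3230, 1764 and 1584 and the *Mertk*-/-V3 libraries 4320, 3601 and 1115. In all, 4 of 6 *Mertk*-/-V1, 1 of 3 *Mertk*-/-V2 and 2 of 3 *Mertk*-/-V3 libraries lay above every B6 WT library, and the groups overlapped, since *Mertk*-/-V1 replicate 3 was near the bottom of the B6 WT range and B6 WT replicate 4 held the 2424. The log2 fold change was 1.11 (SE 0.49, adjusted p = 0.690) in *Mertk*-/-V1, 1.02 (SE 0.60, adjusted p = 0.954) in *Mertk*-/-V2 and 1.33 (SE 0.60, adjusted p = 0.449) in *Mertk*-/-V3.

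*Vim* (ENSMUSG00000026728, chr2:13573927-13582826, plus strand) encodes vimentin, present in Müller glia at rest and in cells of the mesenchyme and the RPE. It ranged from 4584 through 5579 to 6639 in B6 WT RPE, from 5185 through 6560 to 8035 in *Mertk*-/-V1 and from 5687 to 6984 in *Mertk*-/-V3, and these overlapped. Above every B6 WT library lay 3 of 6 *Mertk*-/-V1 and 1 of 3 *Mertk*-/-V3 libraries. In *Mertk*-/-V2 the libraries held 7834, 7408 and 7681, all above every B6 WT library, a ratio of means of 1.36. That comparison gave a log2 fold change of 0.46 (SE 0.14, unadjusted p = 0.0047, adjusted p = 0.679). *Vim* and *Gfap* thus differed in which line stood farthest from B6 WT. *Vim* is on chromosome 2 with *Mertk* and *Lcn2*. *Vim* and *Lcn2*, which starts at base 32384633, both lie far from *Mertk* at chr2:128698956-128802894. The paper maps the 129P2 segment of *Mertk*-/-V1 around *Mertk* by microsatellite markers, whose positions in bases were not analysed here.

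*Lcn2*, *Serpina3n* and *Cp* encode secreted proteins of the acute-phase kind. *Lcn2* encodes lipocalin-2, which binds bacterial siderophores and is made by reactive astrocytes and the stressed RPE. The 6 B6 WT libraries ran from 52.4 through a median of 81.7 to 128 normalized counts and the 6 *Mertk*-/-V1 libraries from 145 through 231 to 1870. The *Mertk*-/-V3 libraries held 527, 132 and 153 and the *Mertk*-/-V2 libraries 65.3, 178 and 200. Every *Mertk*-/-V1 and every *Mertk*-/-V3 library was above all B6 WT libraries, while *Mertk*-/-V2 replicate 1 lay within their range. In *Mertk*-/-V1, *Lcn2* was the 1 marker of 10 whose libraries were all above B6 WT, as were 0.568% of all genes, and the exact permutation test gave p = 0.00216, the smallest that 6 libraries against 6 allow. The log2 fold change of *Lcn2* was 1.89 (SE 0.54, unadjusted p = 0.0027, adjusted p = 0.237) in *Mertk*-/-V1, 0.64 (SE 0.66, adjusted p = 0.984) in *Mertk*-/-V2 and 1.37 (SE 0.66, adjusted p = 0.452) in *Mertk*-/-V3. The ratio of means of 5.68 in *Mertk*-/-V1 rested on replicate 6, and the ratio of medians was 2.83.

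*Serpina3n* (ENSMUSG00000021091, chr12:104406729-104414329, plus strand) encodes a secreted inhibitor of serine proteases and is a common marker of reactive astrocytes. It ran from 2129 through 3374 to 3654 in B6 WT RPE and from 2799 through 7221 to 8045 in *Mertk*-/-V1, where 5 of 6 libraries lay above every B6 WT library and replicate 5 within their range. All 3 *Mertk*-/-V2 libraries, at 3996, 6014 and 5208, and all 3 *Mertk*-/-V3 libraries, at 4583, 4176 and 7255, were above every B6 WT library. The log2 fold changes of 0.88 (SE 0.25, adjusted p = 0.225), 0.68 (SE 0.30, adjusted p = 0.900) and 0.73 (SE 0.30, adjusted p = 0.449) each had an unadjusted p under 0.05, which no other marker had in all 3 lines. *Serpina3n* belongs to a family of near-identical neighbouring copies, and how reads shared between the copies were counted is not given in the sources used here, so its level is uncertain to that extent.

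*Cp* encodes ceruloplasmin, a copper-carrying ferroxidase that lets iron leave cells. It ran from 2668 through 4889 to 7143 in B6 WT and from 2957 through 6470 to 13889 in *Mertk*-/-V1, with 4301, 9253 and 6302 in *Mertk*-/-V2 and 8765, 5711 and 5539 in *Mertk*-/-V3. The groups overlapped in every line, with log2 fold changes of 0.52 (SE 0.32), 0.47 (SE 0.40) and 0.52 (SE 0.40) and unadjusted p of 0.129, 0.250 and 0.207. *Cp* also differed between the replicate sets, being higher in replicates 4 to 6 by 0.75 on the log2 scale (adjusted p = 0.0419 in limma), which was more than its difference between genotypes.

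**Figure D2:**
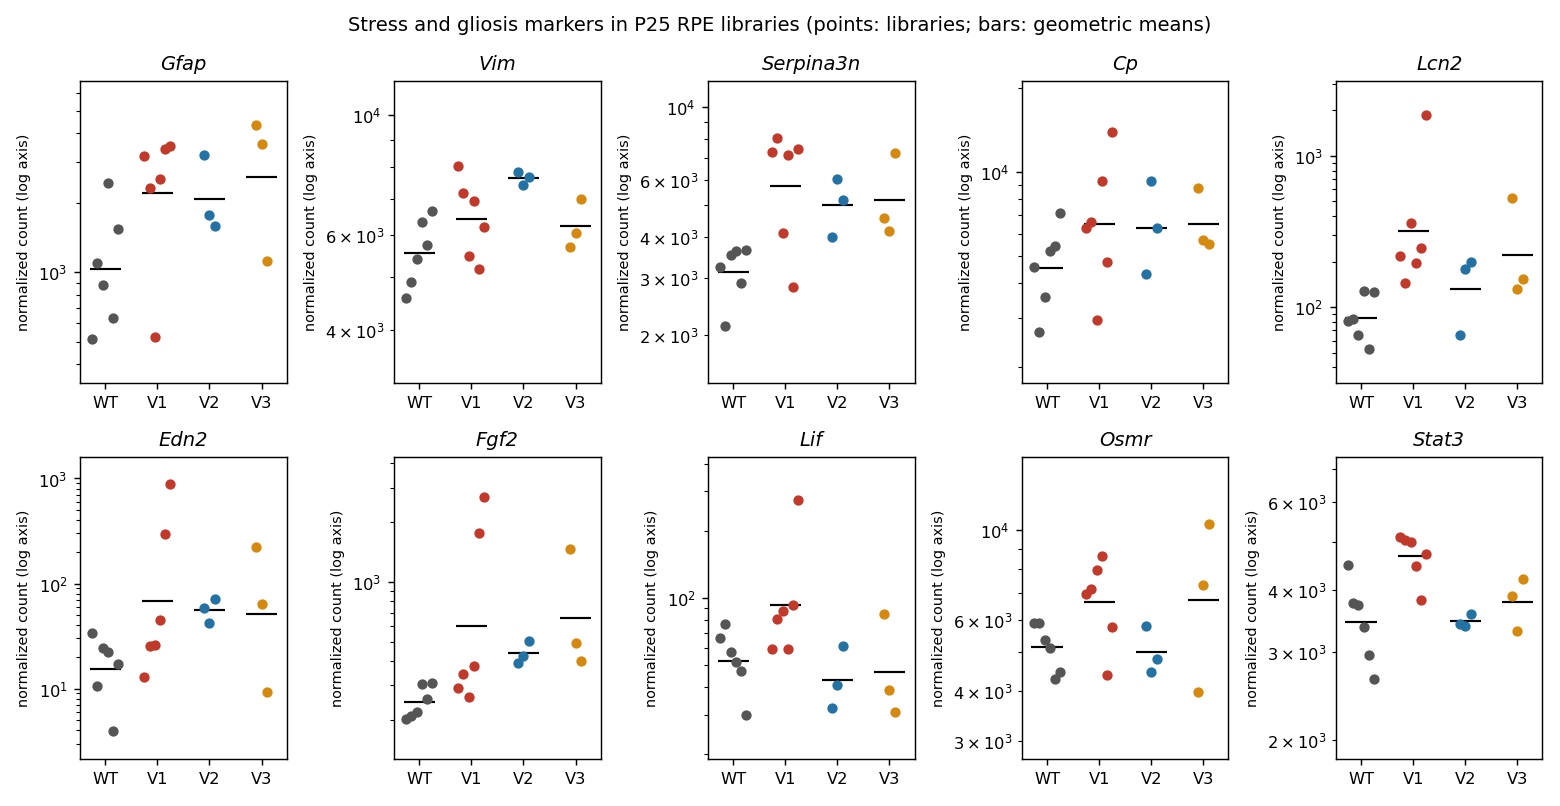
Normalized counts of each marker in the 18 RPE libraries by genotype (vertical axis, log scale; each point is 1 library and each bar a geometric mean). All 6 *Mertk*-/-V1 points of *Lcn2*, from 145 to 1870, sit above the highest B6 WT point of 128. In *Vim* all 3 *Mertk*-/-V2 points, from 7408 to 7834, sit above the B6 WT range. So do 3 of 6 *Mertk*-/-V1 and 1 of 3 *Mertk*-/-V3 points.

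*Edn2*, *Fgf2* and *Lif* are ligands. *Edn2* (ENSMUSG00000028635, chr4:120161206-120167360, plus strand) encodes endothelin-2, a peptide that acts on endothelin receptors of glia and vessels. It was low in B6 WT RPE, from 3.93 through a median of 19.7 to 33.6 normalized counts, and ran from 12.8 through 35.4 to 878 in *Mertk*-/-V1. The *Mertk*-/-V2 libraries held 58.0, 42.4 and 71.4 and the *Mertk*-/-V3 libraries 224, 63.6 and 9.25. All *Mertk*-/-V2 libraries were above every B6 WT library, whereas 3 of 6 *Mertk*-/-V1 and 1 of 3 *Mertk*-/-V3 libraries fell within the B6 WT range. The mean was 11.5 times that of B6 WT in *Mertk*-/-V1, but the ratio of medians was 1.79. The log2 fold changes were 2.08 (SE 0.94, adjusted p = 0.705), 1.78 (SE 1.15, adjusted p = 0.954) and 1.67 (SE 1.15, adjusted p = 0.536) in the 3 lines.

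*Fgf2* (ENSMUSG00000037225, chr3:37348346-37410108, plus strand) encodes basic fibroblast growth factor. It ran from 203 through 238 to 308 in B6 WT RPE and from 263 through 360 to 2699 in *Mertk*-/-V1. The *Mertk*-/-V2 libraries held 391, 421 and 503 and the *Mertk*-/-V3 libraries 1475, 491 and 399. All libraries of *Mertk*-/-V2 and *Mertk*-/-V3 and 4 of 6 of *Mertk*-/-V1 lay above every B6 WT library. The log2 fold changes were 1.28 (SE 0.52, unadjusted p = 0.0252), 0.82 (SE 0.64, unadjusted p = 0.217) and 1.42 (SE 0.64, unadjusted p = 0.0401), with adjusted p of 0.636, 0.962 and 0.449. Together with *Vim*, *Serpina3n* and *Edn2* it made 4 of 10 markers with all *Mertk*-/-V2 libraries above B6 WT, as were 3.72% of all genes, and with *Lcn2* and *Serpina3n* it made 3 of 10 for *Mertk*-/-V3, as were 2.75% of all genes. For each of these the exact permutation test gave p = 0.0238, the smallest that 3 libraries against 6 allow. *Fgf2* also differed between the replicate sets, being higher in replicates 4 to 6 by 1.24 on the log2 scale (adjusted p = 0.0379 in limma). Its *Mertk*-/-V1 difference was 0.49 within replicates 1 to 3 and 2.08 within replicates 4 to 6.

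*Lif* (ENSMUSG00000034394, chr11:4257557-4272514, plus strand) encodes leukemia inhibitory factor, the gp130 cytokine that Müller glia make after photoreceptor injury. Its counts were low, from 29.8 through 54.6 to 76.2 in B6 WT and from 59.2 through 84.1 to 274 in *Mertk*-/-V1, where 4 of 6 libraries lay above every B6 WT library. In *Mertk*-/-V2 and *Mertk*-/-V3 the libraries held 32.2, 40.7 and 61.1 and 84.8, 38.7 and 30.8, within or just above the B6 WT range. The log2 fold change was 0.81 (SE 0.36, unadjusted p = 0.0379, adjusted p = 0.690) in *Mertk*-/-V1 and -0.28 (SE 0.44) and -0.17 (SE 0.44) in the others.

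The last 2 markers receive and carry the signal. *Osmr* (ENSMUSG00000022146, chr15:6813577-6874969, minus strand) encodes the oncostatin M receptor subunit that pairs with gp130. It ran from 4262 through 5231 to 5889 in B6 WT, from 4382 through 7055 to 8619 in *Mertk*-/-V1, from 4451 to 5781 in *Mertk*-/-V2 and from 3972 to 10379 in *Mertk*-/-V3. Above every B6 WT library lay 4 of 6 *Mertk*-/-V1 libraries, 0 of 3 *Mertk*-/-V2 and 2 of 3 *Mertk*-/-V3, with log2 fold changes of 0.38 (SE 0.20), -0.04 (SE 0.25) and 0.39 (SE 0.25) and unadjusted p of 0.0774, 0.868 and 0.132. *Mertk*-/-V3 replicate 1, the library with the lowest RPE genes in that line, had the lowest *Osmr* of all 18.

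*Stat3* (ENSMUSG00000004040, chr11:100885098-100939540, minus strand) encodes the transcription factor downstream of gp130. It ran from 2653 through 3557 to 4489 in B6 WT and from 3828 through 4861 to 5118 in *Mertk*-/-V1, where all 6 libraries lay above the B6 WT median and 4 above every B6 WT library. The *Mertk*-/-V2 libraries, at 3426, 3385 and 3578, and the *Mertk*-/-V3 libraries, at 3892, 3312 and 4209, lay inside the range of all 6 B6 WT libraries. Within replicates 1 to 3, the only numbers of these lines, B6 WT ran from 3735 to 4489 with a mean of 4000. All *Mertk*-/-V2 libraries lay below that range, and the *Mertk*-/-V3 mean was 3804. The log2 fold change in *Mertk*-/-V1 was 0.44 (SE 0.11, unadjusted p = 0.00135, adjusted p = 0.159), the lowest p of the 10 markers, and the exact permutation test gave p = 0.006. In *Mertk*-/-V2 and *Mertk*-/-V3 it was 0.01 (SE 0.14) and 0.14 (SE 0.14). *Stat3* fell by 0.32 on the log2 scale from replicates 1 to 3 to replicates 4 to 6 (adjusted p = 0.0130), and was higher in *Mertk*-/-V1 by 0.34 within the former and 0.54 within the latter. With the replicate set as a term in the fit, its adjusted p in *Mertk*-/-V1 was 0.0390.

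A direct contrast, *Mertk*-/-V1 minus the average of both other lines, tested whether *Mertk*-/-V1 differed from those lines. No marker passed it at an adjusted p under 0.05, where 0.207% of all genes did, with edgeR and DESeq2 also at 0. The paper, which used DESeq2, names *Lcn2* among chromosome 2 genes that differed in *Mertk*-/-V1 RPE from the other lines. In the contrast made here *Lcn2* was higher in *Mertk*-/-V1 by 0.89 (SE 0.54, unadjusted p = 0.117, adjusted p = 0.592 in limma). At an unadjusted p under 0.05, 2 of 10 markers were higher in *Mertk*-/-V1, *Stat3* by 0.37 (SE 0.11, unadjusted p = 0.00507, adjusted p = 0.364) and *Lif* by 1.03 (SE 0.36, unadjusted p = 0.0106, adjusted p = 0.410), against 5.76% of all genes. The differences of *Gfap*, -0.07 (SE 0.49), *Edn2*, 0.35 (SE 0.94), and *Fgf2*, 0.16 (SE 0.52), were smaller than their errors. Within replicates 1 to 3, the only numbers of the other lines, *Mertk*-/-V1 had a lower mean than both for each of these genes. For *Edn2* it was 21.5 normalized counts against 57.3 in *Mertk*-/-V2 and 99.0 in *Mertk*-/-V3, and for *Fgf2* 298 against 438 and 789. The *Stat3* and *Lif* means stayed above both lines there. *Mertk*-/-V2 and *Mertk*-/-V3 were not tested against each other.

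The 10 markers did not all move together in single libraries. Of the 10, the number above every B6 WT library ran from 5 to 8 in the *Mertk*-/-V1 libraries, from 5 to 6 in *Mertk*-/-V2 and from 5 to 7 in *Mertk*-/-V3, while 10.9% to 33.0%, 12.8% to 17.4% and 17.5% to 24.9% of all genes stood above every B6 WT library there. *Mertk*-/-V1 replicate 6 had the highest *Lcn2*, *Cp*, *Edn2*, *Fgf2* and *Lif* of all 18 libraries. *Mertk*-/-V1 replicate 5 had high *Edn2* of 298 and *Fgf2* of 1764 beside the lowest *Serpina3n* and *Vim* of its group. *Mertk*-/-V1 replicate 3 had the second highest *Lcn2* of its group, 359, beside the lowest *Gfap*, 526, and the lowest *Cp*, 2957.

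**Figure D3:**
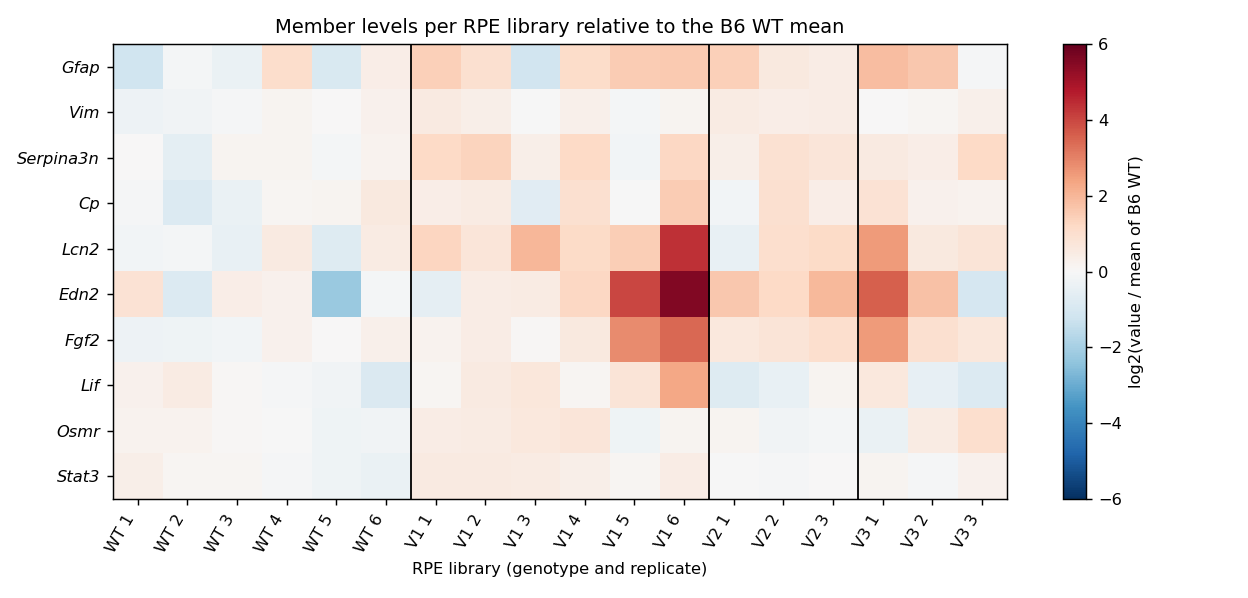
Level of each marker in each RPE library as log2 of its ratio to the B6 WT mean (colour scale; rows are markers, columns are libraries by genotype and replicate). The columns of *Mertk*-/-V1 replicates 5 and 6 and *Mertk*-/-V3 replicate 1 are darkest in *Edn2* and *Fgf2*, with 878 normalized counts of *Edn2* in *Mertk*-/-V1 replicate 6 against a B6 WT mean of 18.6.

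The 3 libraries with the lowest RPE and highest rod genes held the 3 highest values of *Edn2* and of *Fgf2*. Taking each log2 level as its deviation from the mean of its genotype and replicate set, Pearson's r over the 18 libraries was 0.84 for *Edn2* and *Fgf2*, 0.80 for *Fgf2* and *Lif* and 0.81 for *Lcn2* and *Lif*. Without those 3 libraries it was 0.58, 0.29 and 0.31 over 15. By contrast r was 0.77 and 0.78 for *Serpina3n* and *Cp* and 0.75 and 0.68 for *Vim* and *Serpina3n* with and without them. *Fgf2* and *Osmr* ran opposite, with r of -0.80 and -0.47. These are descriptions over libraries that share preparation, depth and genotype.

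Without *Mertk*-/-V1 replicates 5 and 6, an alternative chosen after seeing the data, 0 of 10 markers were called and the log2 fold change in *Mertk*-/-V1 went from 2.08 to 0.64 for *Edn2*, from 1.28 to 0.35 for *Fgf2* and from 0.81 to 0.42 for *Lif*. It was 1.35 for *Lcn2*, 0.78 for *Gfap*, 0.51 for *Stat3* and 1.05 for *Serpina3n* (adjusted p = 0.0542). Within replicates 1 to 3 alone the *Mertk*-/-V1 difference was 1.56 for *Lcn2*, 1.10 for *Serpina3n* and 0.99 for *Gfap* but -0.01 for *Edn2*, and within replicates 4 to 6 it was 4.16 for *Edn2* and -0.04 for *Vim*. Without *Mertk*-/-V3 replicate 1, the *Mertk*-/-V3 differences were 0.63 for *Edn2*, 0.84 for *Fgf2*, 0.74 for *Lcn2*, 0.96 for *Gfap* and 0.82 for *Serpina3n*. The part of cell makeup in these differences was not tested.

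**Figure D4:**
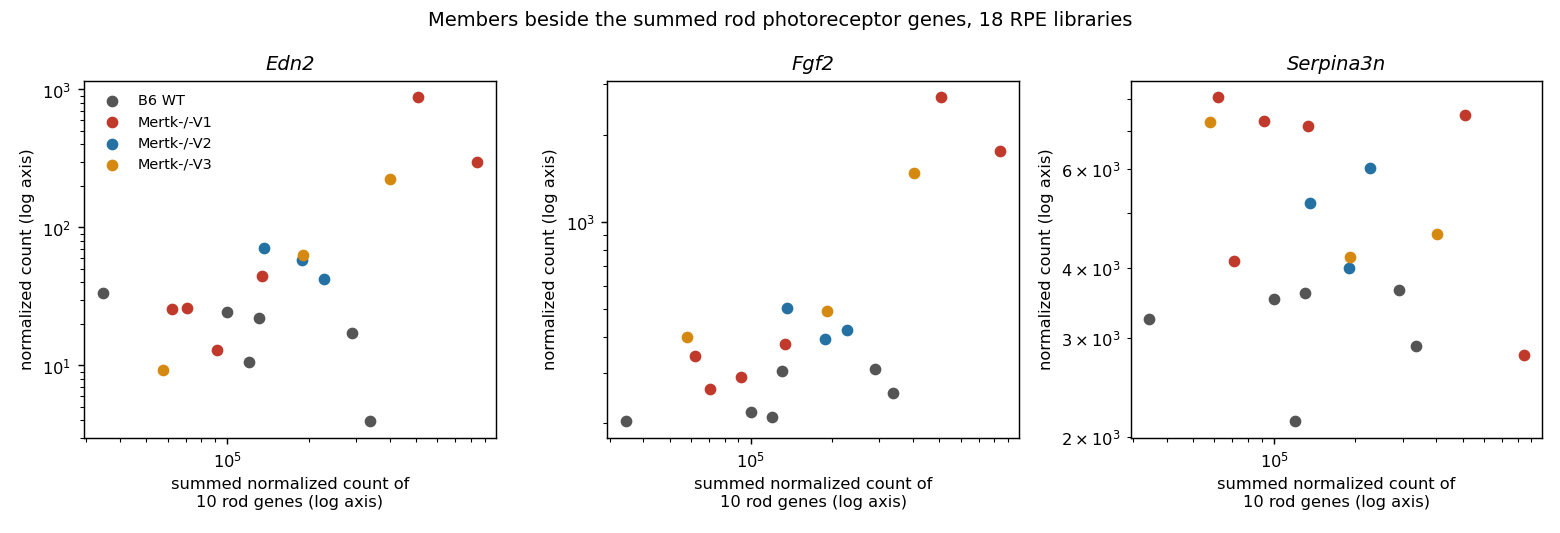
Normalized counts of markers (vertical axes, log scale) against the summed normalized count of 10 rod genes (horizontal axes, log scale) in the 18 RPE libraries, each point 1 library coloured by genotype. The panels show *Edn2*, *Fgf2* and *Serpina3n*, and the 3 libraries with the most rod counts, 401348 to 843129, have *Edn2* of 224 to 878 and *Fgf2* of 1475 to 2699, above all others.

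Marker genes of other cells were read beside the 10 genes. The summed 10 Müller glia genes ran from 98685 to 126357 in B6 WT and from 83473 to 110634 in *Mertk*-/-V1. By sign alone 6 of the 10 were higher there, with a median log2 fold change of 0.14 against 0.02 for all genes. At an unadjusted p under 0.05 in limma, 3 of the 10 were lower and 0 higher, where 6.81% of all genes passed in either direction. The summed 5 astrocyte genes ran from 7388 to 11897 in B6 WT and from 8547 to 17677 in *Mertk*-/-V1, with 0 of 5 past that level. Of the 10 microglia and macrophage genes, 7 were higher and 0 lower in *Mertk*-/-V1 at an unadjusted p under 0.05, where 3.31% of all genes were higher. They were led by *Aif1* with 1.11 (SE 0.24, adjusted p = 0.0552) and *Adgre1* with 0.86 (SE 0.18, adjusted p = 0.0505). The sum of the 10 nevertheless ran from 6225 to 11770 against 7821 to 12885 in B6 WT. At the same level 3 of these 10 were higher in *Mertk*-/-V2 and 2 in *Mertk*-/-V3, against 2.86% and 4.75% of all genes. By sign alone 9 of 10 were higher in *Mertk*-/-V2 and 6 of 10 in *Mertk*-/-V3. The part of these cells in the marker levels was not tested.

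Of the pathway lists around the markers, only that of the STAT3 response and its feedback held genes that passed the test in RPE. Of 12 genes of the STAT3 response and its feedback, 9 were higher in *Mertk*-/-V1 RPE, with a median of 0.37. Of the 12, 3 were higher at an unadjusted p under 0.05, against 3.31% of all genes, and none was lower. At an adjusted p under 0.05, 2 were higher and none lower, where 0.388% of all genes were called in either direction. *Timp1* is in this list and in the pan-reactive glial list. The 2 were *Socs3*, which encodes the inhibitor that STAT3 induces against its own receptor, and *Cebpd*, which encodes the transcription factor C/EBP delta of the acute-phase response. *Socs3* ran in B6 WT from 162 through 195 to 224 normalized counts and from 388 through 450 to 1184 in *Mertk*-/-V1, with 227, 350 and 324 in *Mertk*-/-V2 and 270, 243 and 427 in *Mertk*-/-V3. Every library of the 3 lines was above every B6 WT library. *Cebpd* ran from 119 through 139 to 208 in B6 WT and from 351 through 454 to 885 in *Mertk*-/-V1, with 315, 286 and 337 in *Mertk*-/-V2 and 386, 196 and 279 in *Mertk*-/-V3, and of the 3 lines only *Mertk*-/-V3 overlapped B6 WT.

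The log2 fold change of *Socs3* in *Mertk*-/-V1 was 1.52 (SE 0.24, adjusted p = 0.00561) and that of *Cebpd* 1.70 (SE 0.21, adjusted p = 0.000784). Without *Mertk*-/-V1 replicates 5 and 6 these were 1.37 (adjusted p = 0.00405) and 1.53 (adjusted p = 0.00164). Within replicates 1 to 3 they were 1.49 (adjusted p = 0.0661) and 1.43 (adjusted p = 0.0384), and within replicates 4 to 6 1.56 and 1.97 (adjusted p = 0.557 for each). In *Mertk*-/-V2 they were 0.64 (adjusted p = 0.910) and 1.05 (adjusted p = 0.355), and in *Mertk*-/-V3 0.68 (adjusted p = 0.449) and 0.88 (adjusted p = 0.441). The direct contrast of *Mertk*-/-V1 with the other lines gave 0.87 (adjusted p = 0.282) and 0.74 (adjusted p = 0.294), so a difference between lines in these genes did not pass the test. The list and the markers were chosen with earlier results of these data known.

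The other lists held no gene past an adjusted p under 0.05 in RPE in any line. Of 8 gp130 cytokines, 4 were expressed enough to test, 3 of them higher and none at an unadjusted p under 0.05, with *Ctf1*, cardiotrophin-1, at -0.42. Of 8 gp130 receptors and kinases, 6 were higher in *Mertk*-/-V1, 2 at an unadjusted p under 0.05, against 3.31% of all genes. The CNTF receptor *Cntfr* was at 0.45 and the interleukin-11 receptor *Il11ra1* at -0.31. Of 11 endothelin and FGF partners, 1 was higher and 1 lower at an unadjusted p under 0.05, against 6.81% of all genes in either direction. The endothelin-converting enzyme *Ece2* was at 0.76 and the FGF receptor *Fgfr3* at -0.65. The median log2 fold changes of the 3 lists were 0.10, 0.15 and 0.05, against 0.02 for all genes.

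Of 14 tested genes of the pan-reactive glial list, 12 were higher in *Mertk*-/-V1, with a median of 0.33. At an unadjusted p under 0.05, 3 were higher, against 3.31% of all genes. The chemokine *Cxcl10* ran from 3.93 to 13.0 in B6 WT and held 24.9, 118, 108, 3.62, 91.1 and 74.2 in *Mertk*-/-V1, so that 5 of 6 libraries were above and 1 below every B6 WT library, and its log2 fold change was 2.40 (SE 0.62, unadjusted p = 0.00127, adjusted p = 0.154). Its 3 *Mertk*-/-V2 libraries, from 20.1 to 24.1, and its 3 *Mertk*-/-V3 libraries, from 20.0 to 24.5, were all above B6 WT as well. This held for 3.72% of all genes in *Mertk*-/-V2 and 2.75% in *Mertk*-/-V3. Complement *C3* had 0.94 (SE 0.47, adjusted p = 0.744). Of 8 tested genes of iron and siderophore handling, which surround *Lcn2* and *Cp* in function, 1 was higher and 7 lower in *Mertk*-/-V1, with a median of -0.23. At an unadjusted p under 0.05, 3 were lower, where 6.81% of all genes passed in either direction. *Trf*, transferrin, had -0.64 (SE 0.29, adjusted p = 0.716) and *Heph*, hephaestin, the ferroxidase related to ceruloplasmin, had -0.55 (SE 0.21, adjusted p = 0.591), each with 5 of 6 *Mertk*-/-V1 libraries below every B6 WT library.

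Levels of the markers could be ordered within a tissue after division by gene length. In B6 WT RPE *Serpina3n* stood highest, with 59.1 ± 12.2 RPKM, reads per kilobase of gene and 1000000 reads (SD, n = 6), and *Vim* next with 45.6 ± 8.89, and their ranges of mean ± SD overlapped. *Cp* at 19.4 ± 7.33, *Osmr* at 16.2 ± 1.18, *Stat3* at 14.0 ± 1.78 and *Gfap* at 10.8 ± 6.56 formed a middle group in which each neighbour overlapped the next in the same way. *Fgf2* at 1.43 ± 0.334, *Lcn2* at 1.30 ± 0.486, *Edn2* at 0.479 ± 0.255 and *Lif* at 0.477 ± 0.118 were lowest, with *Fgf2* overlapping *Lcn2* and *Edn2* overlapping *Lif*, but not *Lcn2* overlapping *Edn2*.

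In B6 WT BMDMs the order was another. *Vim* stood at 363 ± 26.2 RPKM (SD, n = 3), *Stat3* at 13.8 ± 0.456 and *Lcn2* at 0.896 ± 0.180, and these 3 were the only markers with enough reads to test. *Gfap*, *Fgf2*, *Cp* and *Lif* gave a few reads a library, *Serpina3n* 1 read in 1 of 12 libraries, *Osmr* 2 and 1 reads in 2 *Mertk*-/-V1 libraries and *Edn2* no read in any of the 12, which allows up to 0.117 to 0.180 reads in 1000000 by the limit of 3 reads in a library. That limit covers counting error only. BMDMs expressed all 10 microglia and macrophage genes, with a sum of 245946 to 269166 normalized counts, against 23 to 55 for the RPE genes.

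**Figure D5:**
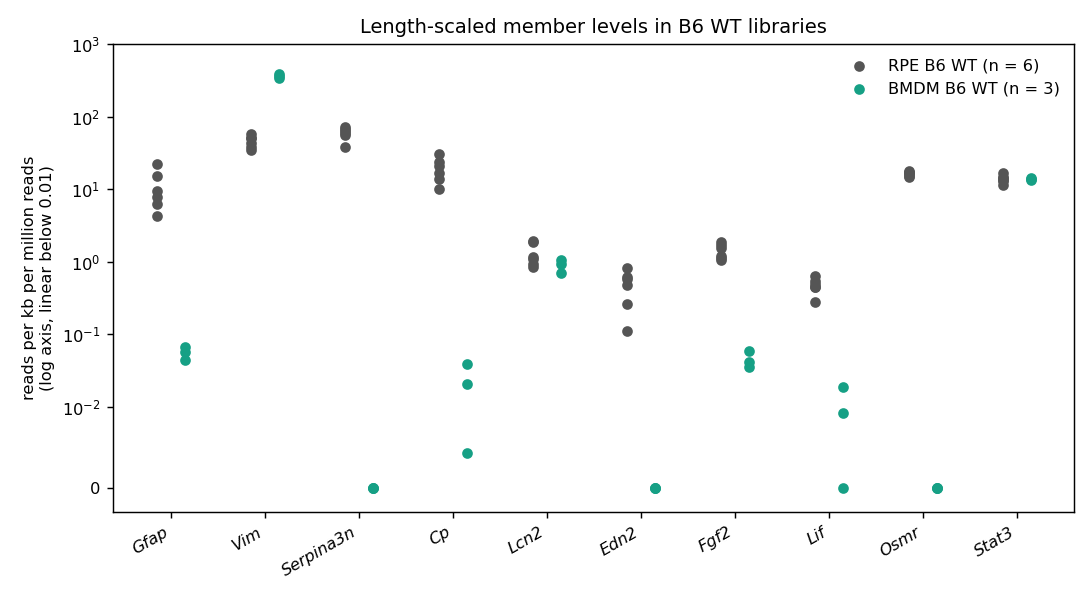
Length-scaled levels of the markers in the 6 RPE and 3 BMDM libraries of B6 WT mice (vertical axis, RPKM, log scale that is linear below 0.01; each point is 1 library). The mean of *Vim* is 363 in BMDMs and 45.6 in RPE, that of *Stat3* is 13.8 and 14.0, and *Edn2*, *Osmr* and *Serpina3n* are at 0 in BMDMs. Differences in level between the tissues were not tested.

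In BMDMs 0 of the 3 tested markers passed an adjusted p under 0.05 in any line by limma, edgeR or DESeq2, while 7.07% of genes did in *Mertk*-/-V1, 4.61% in *Mertk*-/-V2, 1.17% in *Mertk*-/-V3 and 0.991% in the direct contrast of *Mertk*-/-V1 and the other lines. At an unadjusted p under 0.05 in limma, 1 of 3 was higher in each of these comparisons, against 12.4%, 9.68%, 7.82% and 6.55% of genes. In limma this was *Stat3* for the 3 lines. Its normalized counts were 2617, 2624 and 2825 in the B6 WT libraries, 3013, 2853 and 2892 in *Mertk*-/-V1, 3040, 3016 and 2677 in *Mertk*-/-V2 and 2958, 3055 and 3108 in *Mertk*-/-V3. Its libraries were all above B6 WT in *Mertk*-/-V1, as for 15.4% of genes, and in *Mertk*-/-V3, as for 12.2% of genes, and the exact permutation test cannot go below 0.10 with 3 libraries against 3. The log2 fold changes were 0.12 (SE 0.05, adjusted p = 0.186), 0.11 (SE 0.05, adjusted p = 0.233) and 0.18 (SE 0.05, adjusted p = 0.117). In the contrast between lines it was *Vim*, higher by 0.17 (SE 0.06, adjusted p = 0.228) in *Mertk*-/-V1. *Cp*, under the limit for that test, had 5, 1 and 8 reads in B6 WT and 18, 13 and 8 in *Mertk*-/-V1, and edgeR gave a log2 fold change of 1.78 (unadjusted p = 0.0061, adjusted p = 0.0680).

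*Lcn2* ran from 38.1 to 56.7 in B6 WT BMDMs and from 42.3 to 43.9 in *Mertk*-/-V1, inside the same range, with a log2 fold change of -0.13 (SE 0.19). *Socs3* ran from 39.0 to 42.7 in *Mertk*-/-V1 BMDMs and from 56.2 to 71.5 in B6 WT, opposite in direction to RPE, without passing the test. Of the lists, the genes past an adjusted p under 0.05 in BMDMs were *Fos* at -2.60, *Myc* at 0.32, *Pim1* at 0.27, *Tyk2* at 0.26 and *Ccl2* at 0.44 in *Mertk*-/-V1, *Fos* at -2.46, *Myc* at 0.37 and *Ccl2* at 0.45 in *Mertk*-/-V2, none in *Mertk*-/-V3, and *Fos* at -1.25 and *Ccl2* at 0.22 in the direct contrast of *Mertk*-/-V1 and the other lines. With single libraries left out the *Pim1* call was lost each time (adjusted p = 0.0611 to 0.177), that of *Tyk2* reached an adjusted p of 0.0513 and that of *Ccl2* in the direct contrast 0.133.

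The difference of each knockout effect between RPE and BMDMs was tested with edgeR on all 30 libraries. It passed an adjusted p under 0.05 in 0.158% of genes for *Mertk*-/-V1, 0.0431% for *Mertk*-/-V2 and 0.0192% for *Mertk*-/-V3, and for 0 markers in each. Of the 10, 7 had a BMDM mean under 10 normalized counts and *Edn2* no BMDM read, so only *Vim*, *Stat3* and *Lcn2* had a level in both tissues that could be compared. At an unadjusted p under 0.05 there was 1 marker for *Mertk*-/-V1, *Lcn2*, whose effect was higher in RPE by 2.67 on the log2 scale (unadjusted p = 0.0061, adjusted p = 0.394), 1 for *Mertk*-/-V2, *Vim*, by 0.50 (adjusted p = 0.487), and 0 for *Mertk*-/-V3.

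DESeq2 on the recovered reads made marker calls in *Mertk*-/-V1 RPE. Under the study's rule, which also asks for a minimum fold change, it called 3 of 10 markers, *Lcn2* at 2.50 (adjusted p = 0.00274), *Edn2* at 3.51 (adjusted p = 0.00717) and *Fgf2* at 1.93 (adjusted p = 0.0328), against 0.309% of all genes. At the adjusted p alone it added *Serpina3n* at 0.95 (adjusted p = 0.0191). These estimates follow the mean of the counts, which for *Edn2* and *Lcn2* rested on *Mertk*-/-V1 replicate 6.

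The genes that followed each marker most closely over the 18 RPE libraries were ranked, among 18832 genes, by Pearson's r of the same deviations from the mean of genotype and replicate set. They were *Kif5a* (0.93), *Unc13c* and *Gpr37l1* for *Gfap*, *Fkbp10* (0.91), *Zcchc24* and *Serping1* for *Vim*, and *C3* (0.89), *Gm6705* and *Acsl3* for *Lcn2*. For *Serpina3n* they were *Ror2* (0.97), *Gpc4* and *Gpx3*, and for *Cp* they were *Col2a1* (0.95), *Tmem132b* and *Greb1*. *Edn2* was followed by *Gadd45b* (0.86), *Lrrc2* and *Fgf2*, and *Fgf2* by *Lrrc2* (0.96), *Actr10* and *Lsm14a*. *Lif* was followed by *Tnnt2* (0.91), *Zkscan14* and *Rbm17*, *Osmr* by *Chil1* (0.97), *Snx9* and *Smpdl3a*, and *Stat3* by *Tlr2* (0.92), *Etf1* and *Spcs2*. The libraries share depth, preparation and cell makeup, and the ranks are a description.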

How the data were processed

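RNA with poly(A) tails was sequenced as paired ends from 18 RPE and 12 BMDM samples of 4 genotypes. Per the paper's methods and the submitters' processing notes, the authors trimmed reads with btrim, mapped them with STAR to GRCm38 and normalized gene counts with DESeq2; the read counter and tool versions are not given in the sources used here. The deposited tables hold normalized counts (signal), gene counts divided by a size factor per sample and normalized separately by tissue, so levels were not compared across tissues on this scale. All columns belonged to samples, and 0 were left over. Whole reads were recovered from the steps of these values with a tolerance of 0.01 and served the depth, the length-scaled levels and the count tests.

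Values were taken as log2(normalized count + 1), so that fold changes of low genes are understated. Genes with a mean of at least 10 in a tissue were fitted with limma 3.58.1 (R 4.3.3, eBayes with trend), all 4 genotypes in a model per tissue, with Benjamini-Hochberg adjustment over all genes and, as in the study, a call at an adjusted p under 0.05 with a fold change of 1.25 or more on the log2 scale. A gene was also counted at the adjusted p alone. edgeR 4.0.16 (quasi-likelihood, TMM) and DESeq2 1.42.0 on recovered reads were alternatives, and edgeR tested the difference between tissues. Single markers had a two-sided exact permutation test of the mean log2 value in scipy 1.17.1. On simulated data for *Mertk*-/-V1 against B6 WT in RPE, with 200 of 18372 genes given a log2 change of 2, limma found 87% with 3 false calls and DESeq2 92.5% with 13. The simulation held no difference between replicate sets and no smaller change. It does not give the recovery for the smaller changes of most markers.

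Named were all 10 markers, of each pathway list the genes called in a comparison plus the 2 with the largest absolute change in *Mertk*-/-V1 RPE, and the 3 genes most like each marker; 1 gene named by this rule is not reported here. The markers and lists were chosen with earlier results of these data known. Equal replicate numbers were not treated as pairs in the main fit. Other alternatives were another pseudocount, no filter, quantile normalization, array weights, only the groups compared, the replicate set as a term or alone, and leaving out each replicate.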

Additional observations from a re-analysis of the deposited data

Results flagged for a closer look

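In 3 of 20 groups of markers with 4 to 10 libraries, 1 library stood apart from the rest by Dixon's test at the 95% level, and each time it was *Mertk*-/-V1 RPE replicate 6. *Lcn2* was 1870 normalized counts there, with a gap of 0.876 of the group's range to the next library. *Edn2* was 878, with a gap of 0.671 of the range. *Lif* was 274, with a gap of 0.840 of the range. Chance flags about 1 in 20 groups. The library had the lowest summed RPE genes of all 18, 201054, and the second highest summed rod genes, 509280. The part of either in these values was not tested.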

How the results depend on the processing

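Of 1007 alternative values for 52 marker fold changes, 51 had another sign than the reported value, 2 of 240 for *Mertk*-/-V1, 11 of 190 for *Mertk*-/-V2 and 6 of 190 for *Mertk*-/-V3 in RPE, and 7 results passed the rule only in an alternative. The reported count called was 0 throughout. In *Mertk*-/-V1 RPE DESeq2 called 3. At the adjusted p alone quantile normalization gave 1, array weights 2, DESeq2 4, the replicate set as a term 1 and leaving out single replicates 0 to 1, the 1 being *Serpina3n* (adjusted p = 0.0213) without *Mertk*-/-V1 replicate 5. In *Mertk*-/-V2 RPE array weights gave 2 at the adjusted p alone (4.57% of all genes). In *Mertk*-/-V3 RPE they gave 2 under the fold rule (8.91% of all genes) and 8, *Lif* among them as lower, at the adjusted p alone (66.9% of all genes), and in the contrast of *Mertk*-/-V1 with the other lines 2 (28.9%). In BMDMs at the adjusted p alone, array weights gave 1 in each line (20.6%, 8.81% and 12.6% of genes), only the groups compared gave 1 in *Mertk*-/-V3, and leaving out single replicates gave 0 to 1 in *Mertk*-/-V2 and in the contrast between lines, each time without *Mertk*-/-V2 replicate 3. With RPE replicates 1 to 3 only, the tissue difference gave 1 marker for *Mertk*-/-V2. The cause was not tested.

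The labels do not say whether replicate numbers shared between genotypes pair the RPE libraries. Deviations of same-numbered samples correlated from -0.46 to 0.72, with a median of 0.15. Those of other-numbered samples correlated from -0.71 to 0.74, with a median of -0.003. A fit with the replicate block gave 1 marker at the adjusted p alone in *Mertk*-/-V1 RPE, *Stat3* (0.696% of all genes), 1 in the contrast of lines (12.4%), and 2 in *Mertk*-/-V3 under the fold rule (6.74%) and at the adjusted p alone (29.8%), *Gfap* at 1.77 and *Fgf2* at 2.04.

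Depth limited the low markers: in BMDMs 7 of 10 had a mean under 10 normalized counts and no test, and in RPE *Edn2* and *Lif* rested on few reads.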
